A study of Mus musculus with 4 samples.

Results

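The synaptonemal complex is the protein ladder that holds paired chromosomes together in meiotic prophase. The 9 genes described here encode its lateral elements (Sycp2 and Sycp3), its transverse filament (Sycp1), its central element (Syce1, Syce2, Syce3 and Tex12) and the HORMA-domain proteins of the unsynapsed axis (Hormad1 and Hormad2). They were taken by symbol from a table of 22073 genes, and 9 of 9 were in it. Their messenger RNA was measured by poly(A) RNA sequencing in the right testis of 4 adult male mice of the KM strain, a mouse stock given in the labels without further description. In the hemicastrated group (2 libraries) the left testis had been removed before puberty. The control group (2 libraries), which the labels call normal, had sham surgery at the same time, so both groups had been operated on and both kept the right testis sampled here. One protocol passage mentions 3 mice in each group, while another has RNA from 4 individuals going into libraries, so the 4 libraries are taken as 4 mice. Age is given only as body maturity. The question is whether these genes stand at another level in the testis left behind.

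In meiosis, each chromosome first folds its loops onto an axis built of cohesin, SYCP2, SYCP3 and the HORMAD proteins. SYCP1 then spans the gap between the axes of a pair like the teeth of a zipper, and the central element proteins lock the SYCP1 heads at the midline. HORMAD1 and HORMAD2 mark axes that have not yet synapsed and are largely removed as the zipper closes. In the testis these genes are expressed in spermatocytes, and males lacking most of the 9 proteins arrest in prophase and are sterile.

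Values are FPKM (fragment counts scaled by transcript length and library size) as deposited. Levels of different genes are set side by side per length, though that scaling does not cover GC content. Read depth is unknown, and the precision is that of the spread between libraries. Group differences (hemicastrated minus control) are taken on log2(FPKM + 1) values and tested with limma over the 11343 genes whose mean reached 1 FPKM. That scale understates the change of low genes. All 9 genes passed this filter. With 2 libraries against 2, the smallest two-sided p of an exact permutation test on a single gene is 0.33, so the tests depend on limma's sharing of variance information across genes.

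The summed FPKM ranged from 343105 to 353135 over the 4 libraries. The testis markers Prm1 (spermatid protamine) and Insl3 (Leydig cell hormone) were at 5732 to 6458 and 1232 to 1609 FPKM. The Sertoli cell factor Sox9 was low, at 0.691 to 1.01 FPKM. Of 6 tested epididymis genes, 5 fell, and the list's summed level was 1050 and 1517 FPKM in control testes against 5.43 and 8.14 after hemicastration. Crisp1, an epididymal secretory protein gene, was at 545 and 786 FPKM against 0.0453 and 0.0391, a log2 fold change of -9.30 (adjusted p = 8.45e-06 in limma). The part of this epididymal signal in the results on meiotic genes was measured only through scaling: with FPKM rescaled to equal sums without the lower genes, the median log2 fold change of the 9 genes was 0.35 in place of 0.38.

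The promoters of 4 of the genes are shown because a shared 6-base palindrome stands close to their start sites, and because these 4 had the largest log2 fold changes of the 9, by which they were picked. Capitals mark CACGTG, an E-box read by dimers of MAX, and GGCGGGA, a motif read by E2F factors. The letters are the strand of the gene, 5′ to 3′, from RefSeq on GRCm38.p6, and end before the first transcribed base of both RefSeq and GENCODE M21. The Sycp1 stretch is chr3:102936101-102936350 (minus strand), that of Sycp3 is chr10:88459337-88459568 (plus), that of Hormad1 is chr3:95559427-95559676 (plus) and that of Tex12 is chr9:50561326-50561518 (minus). In GENCODE M21 the Sycp3 and Tex12 stretches also lie in introns of Chpt1 and Il18, genes of the opposite strand.
Sycp1 promoter: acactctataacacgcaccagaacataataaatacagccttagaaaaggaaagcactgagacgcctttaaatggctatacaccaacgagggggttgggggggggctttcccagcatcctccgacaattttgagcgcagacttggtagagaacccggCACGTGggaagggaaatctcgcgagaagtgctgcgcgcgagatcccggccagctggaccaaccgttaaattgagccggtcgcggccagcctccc
Sycp3 promoter: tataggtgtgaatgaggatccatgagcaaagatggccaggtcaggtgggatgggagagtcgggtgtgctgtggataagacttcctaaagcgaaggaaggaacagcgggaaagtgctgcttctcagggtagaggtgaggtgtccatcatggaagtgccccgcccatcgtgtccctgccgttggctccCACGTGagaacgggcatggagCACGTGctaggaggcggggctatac
Hormad1 promoter: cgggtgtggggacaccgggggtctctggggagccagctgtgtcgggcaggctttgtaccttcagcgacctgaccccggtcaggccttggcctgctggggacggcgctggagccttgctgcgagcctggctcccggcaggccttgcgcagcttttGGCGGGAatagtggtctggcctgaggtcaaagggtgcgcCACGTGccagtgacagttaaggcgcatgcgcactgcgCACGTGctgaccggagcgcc
Tex12 promoter: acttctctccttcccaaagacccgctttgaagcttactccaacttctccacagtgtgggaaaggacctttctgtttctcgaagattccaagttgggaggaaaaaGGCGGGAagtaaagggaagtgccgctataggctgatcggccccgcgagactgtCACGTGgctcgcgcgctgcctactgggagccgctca

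The E-box began at position -94 from the RefSeq start in Sycp1, at -64 and -43 in Sycp3, at -57 and -20 in Hormad1 and at -93 in Tex12. Syce2 also held one, at -88 of its second RefSeq start, downstream of its first. In windows of 250 bases before to 50 after the start, CACGTG was found in 5 of 9 genes, against 8.09% of 27025 genes with a RefSeq window and 11.7% of 8946 such genes that were tested here. GGCGGGA, on either strand, was found in 3 of 9 (Hormad1, Tex12 and Syce2), against 12.7% of all genes and 23.2% of the tested ones. CNCCTCAG, a motif reported for the meiotic initiator STRA8, was found on either strand in 4 of 9 (Sycp1, Syce2, Tex12 and Hormad2), against 9.12% and 11.5%, and shared 4 bases with GGCGGGA in Syce2. AACNGTT, a motif of the MYB family to which the spermatocyte factor MYBL1 belongs, was found in Sycp1 alone, against 5.01% and 4.17%. Taking the highest window of each gene, the 9 genes had a median of 16 CpG sites in 300 bases, against 22 in the tested genes and 8 in all genes. A match is a string of letters, and no binding was measured. Both hemicastrated values lay above both controls in 4 of the 5 genes with an E-box in the window. The same held in 3 of the 4 without one, and in 16.3% of all genes tested.

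None of the 9 genes was past the threshold of an adjusted p under 0.05 in limma with Benjamini-Hochberg adjustment over all genes. The background is 147 of 11343 genes, or 1.30%, past it in either direction (0.106% higher and 1.19% lower). By unadjusted p under 0.05 the count was 6 of 9, each with the higher value after hemicastration, against 3.98% of all genes tested in that direction, 6.52% in the other and 10.5% in both. The log2 fold change was above 0 for 9 of 9 genes, with a median of 0.38, against 43.4% of all genes and a median of -0.03. Both hemicastrated libraries lay above both controls in 7 of 9 genes, against 16.3% of all genes. These counts describe genes that were picked as a group with earlier results known. In whole testis, more spermatocytes and more RNA per spermatocyte cannot be told apart.

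**Figure D1:**
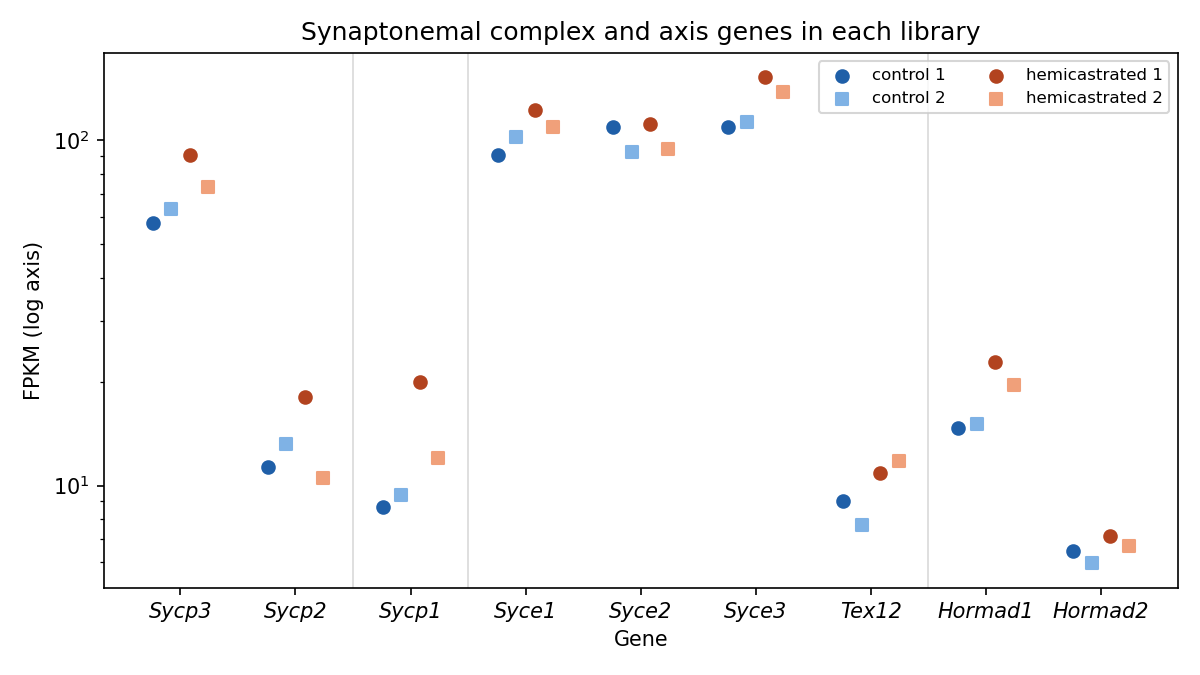
FPKM (log axis) of the 9 genes in each of the 4 libraries, 1 point per library. Grey vertical lines set apart the lateral element, transverse filament, central element and HORMA-domain genes. The hemicastrated points lie above both controls in 7 genes and overlap them in Sycp2 and Syce2.

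The lateral element genes gave unlike results. Sycp3 (ENSMUSG00000020059, chromosome 10, 88459569 to 88473236 on GRCm38, plus strand, 8 exons in its longest coding transcript) encodes the fibre-forming core protein of the axis. Control testes had 57.6 and 63.4 FPKM of it, and hemicastrated testes 90.7 and 73.1. The groups did not overlap, with hemicastrated 1 the highest (log2 fold change 0.42, 95% interval 0.12 to 0.72, limma adjusted p = 0.287). A transcript of Sycp3 has 420 bases in common with one of Chpt1, a phospholipid enzyme gene on the opposite strand, and the protocol names no step that marks the strand. Chpt1 was at 62.3 and 57.4 FPKM against 56.7 and 52.7.

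Sycp2 (ENSMUSG00000060445, chromosome 2, 178345293 to 178407685, minus strand, 44 exons) encodes the large partner that binds SYCP3 and recruits it to the axis. Its level was 11.3 and 13.2 FPKM in control testes against 18 and 10.5. Here hemicastrated 1 was the highest and hemicastrated 2 the lowest of the 4 libraries, so the groups overlapped. The log2 fold change of 0.16 (95% interval -0.41 to 0.73, limma adjusted p = 0.864) was -0.20 without hemicastrated 1 and 0.52 without hemicastrated 2.

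Sycp1 (ENSMUSG00000027855, chromosome 3, 102818499 to 102936100, minus strand, 33 exons) encodes the transverse filament and had the largest difference of the 9. Control testes had 8.70 and 9.41 FPKM and hemicastrated testes 19.9 and 12.0, a ratio of group means of 1.76. The controls lay close together, while hemicastrated 1 stood far above hemicastrated 2. The log2 fold change was 0.71 (SE 0.22, 95% interval 0.18 to 1.25, limma adjusted p = 0.317). Without hemicastrated 2 it was 1.06 and past the threshold (limma adjusted p = 0.0177), a fit in which the single library left in the group is assumed to vary like the controls. Without hemicastrated 1 it was 0.37, and over all 16 alternatives the adjusted p ran from 0.0177 to 0.791. The pseudogene Sycp1-ps1 matches 2560 bases of the transcript at 92.4% identity, so part of its value is uncertain. The pseudogene itself was not analysed here.

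Among the central element genes, Syce3 had the smallest p. Syce3 (ENSMUSG00000078938, chromosome 15, 89390174 to 89410503, minus strand, 3 exons) encodes a small protein that loads the other central element proteins onto SYCP1. Its level was 109 and 113 FPKM in control testes against 152 and 138, with the smaller hemicastrated value well above the larger control value. Its log2 fold change was 0.38 (SE 0.09, 95% interval 0.17 to 0.59, limma adjusted p = 0.170). This was the smallest p of the 9, ranking 280 among the 11343 genes tested, and its adjusted p ran from 0.0714 to 0.616 over the alternatives.

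Syce1 (ENSMUSG00000025480, chromosome 7, 140777229 to 140787852, minus strand, 13 exons), whose protein partners SYCE3 at the midline, stood at 90.6 and 102 FPKM in control testes, and at 122 and 109 after hemicastration. The groups were apart but by little (log2 fold change 0.26, 95% interval 0.01 to 0.51, limma adjusted p = 0.454).

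Syce2 (ENSMUSG00000003824, chromosome 8, 84872111 to 84888221, plus strand, 5 exons) and Tex12 (ENSMUSG00000032065, chromosome 9, 50556819 to 50561325, minus strand, 5 exons) encode the partners of a fibre-forming complex that lengthens the zipper. Syce2 was at 109 and 92.1 FPKM in control testes against 111 and 94.0. Its groups overlapped, and the difference of 0.02 had a 95% interval of -0.28 to 0.32 on the log2 scale (limma adjusted p = 0.973). Its sign changed with the scaling, being -0.01 under quantile normalization. Tex12 was at 9.01 and 7.70 FPKM in control testes against 10.9 and 11.8. Tex12 was the single gene of the 9 in which hemicastrated 2 was above hemicastrated 1 (log2 fold change 0.41, 95% interval 0.11 to 0.70, limma adjusted p = 0.306). The partners thus include a gene whose groups lay apart and one whose groups did not, but the difference between the 2 genes was not tested. Tex12 overlaps Il18, a cytokine gene of the opposite strand, which was at 0.354 to 1.4 FPKM and below the filter. Syce2 overlaps Gcdh, a mitochondrial dehydrogenase gene also of the opposite strand, at 1.5 to 2.55 FPKM.

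The HORMA-domain genes both had hemicastrated values above the controls. Hormad1 (ENSMUSG00000028109, chromosome 3, 95559677 to 95587671, plus strand, 16 exons), needed for double-strand break formation and for the loading of the other axis regulators, was at 14.7 and 15.1 FPKM in control testes against 22.8 and 19.5. The controls were nearly equal and both hemicastrated values were above them (log2 fold change 0.48, SE 0.11, 95% interval 0.20 to 0.75, limma adjusted p = 0.190, ranging from 0.123 to 0.630 over the alternatives). The pseudogenes Gm15529 and Gm7167 match 922 and 1112 bases of it at 97.7% and 92.1% identity, so its value too is uncertain in part.

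Hormad2 (ENSMUSG00000020419, chromosome 11, 4345814 to 4441105, minus strand, 11 exons) helps to signal unsynapsed chromosomes to the prophase checkpoint. Control testes had 6.46 and 5.96 FPKM against 7.14 and 6.70, the lowest level of the 9 in each library. The groups were apart by a small step (log2 fold change 0.14, 95% interval -0.15 to 0.42, limma adjusted p = 0.755).

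**Figure D2:**
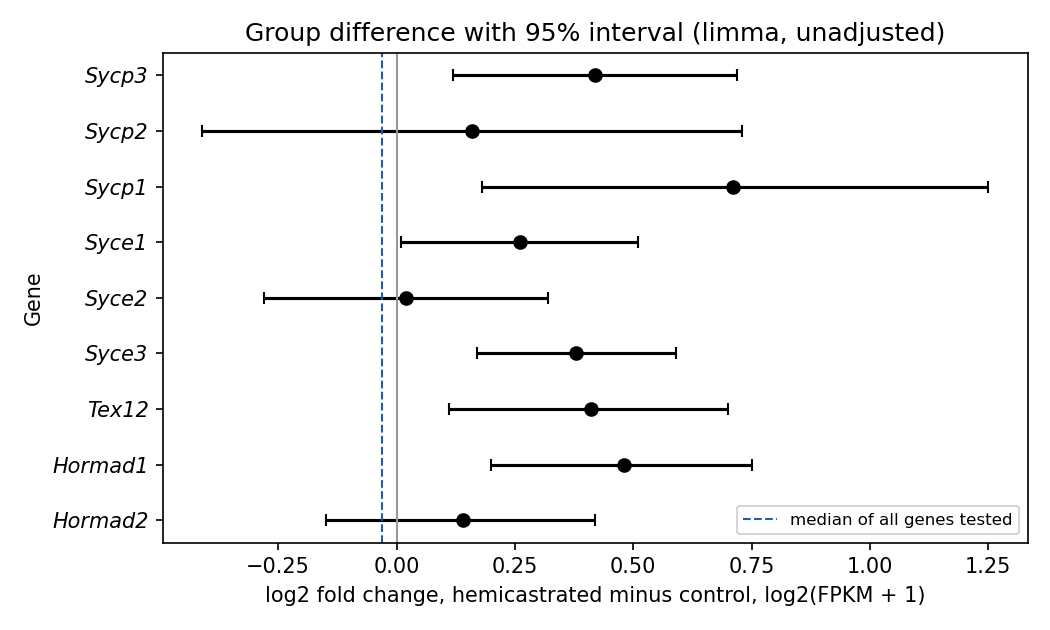
Log2 fold change (hemicastrated minus control, log2(FPKM + 1) scale) of each gene as a point, with its 95% limma interval, not adjusted for the number of genes, as a bar. The dashed line is the median of all genes tested, at -0.03, and the intervals of Sycp2, Syce2 and Hormad2 cross 0.

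By level per transcript length, the genes fell into an upper and a lower set. In order of the mean over 4 libraries, Syce3 (128 FPKM), Syce1 (106), Syce2 (102) and Sycp3 (71.2) stood above Hormad1 (18), Sycp2 (13.3), Sycp1 (12.5), Tex12 (9.87) and Hormad2 (6.56). The step from Sycp3 to Hormad1 was 3.95-fold with no overlap between their libraries. Syce2 and Sycp3, and Tex12 and Hormad2, were also neighbours without overlap. The other 5 neighbouring pairs overlapped in range, and Sycp2 was above Sycp1 in 2 of 4 libraries. Central element genes stood at both ends of the order, with Tex12 far below its partner Syce2 (ratio 0.0823 and 0.0836 in control testes, 0.099 and 0.126 after hemicastration).

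The hemicastrated libraries were not alike. Of the 9 genes, 8 were higher in hemicastrated 1 than in hemicastrated 2, against 47.3% of all tested genes. Between the controls, 6 of 9 were higher in control 2 than in control 1, against 40.7%. In log2 units above the control mean, the median of the 9 genes was 0.45 in hemicastrated 1 and 0.27 in hemicastrated 2, and the same median over all tested genes was -0.03 and -0.02. The summed FPKM of the 9 genes was 417 and 422 in the controls, 555 in hemicastrated 1 and 475 in hemicastrated 2. The gap between the hemicastrated libraries was widest for Sycp2 and Sycp1, at 0.73 and 0.69 on the log2 scale, and narrowest for Hormad2, at 0.08. Leaving out hemicastrated 1 gave the lowest median log2 fold change of the 9 genes, 0.27, and leaving out hemicastrated 2 the highest, 0.45.

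**Figure D3:**
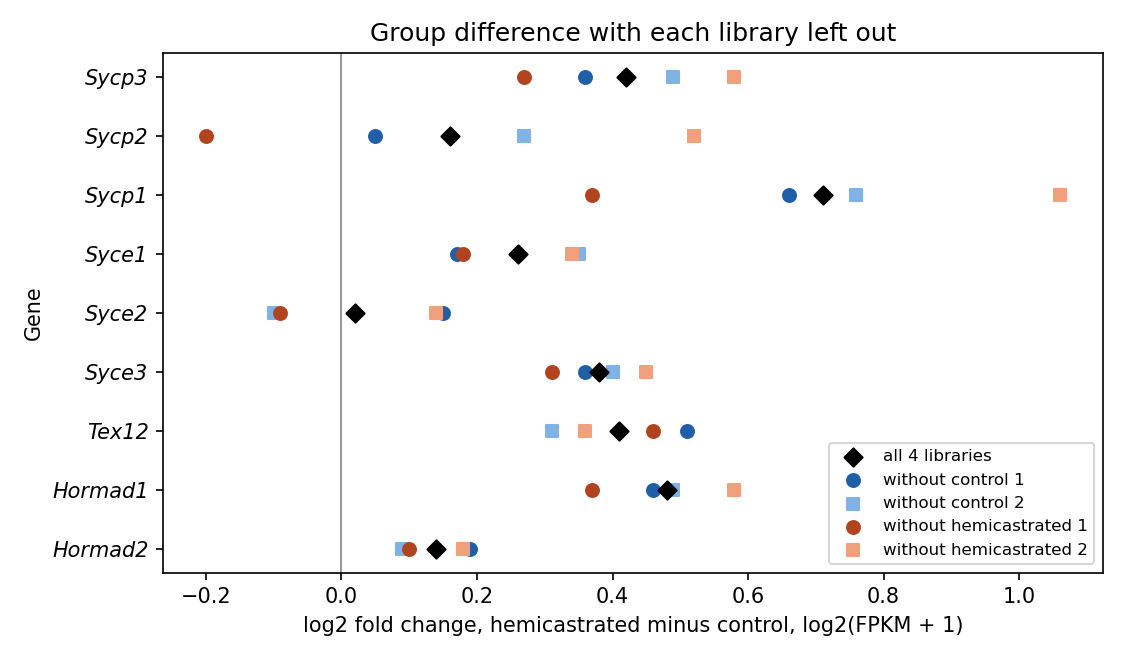
Log2 fold change of each gene with all 4 libraries (black diamonds) and with each library left out in turn (coloured points). The points without hemicastrated 1 lie left of the diamonds in 8 genes, Sycp2 and Syce2 cross 0, and the points of Syce3 stay between 0.31 and 0.45.

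Base composition differed among the 9 genes, and its part in the gap between the hemicastrated libraries was not tested. The transcripts of Sycp1, Sycp2, Sycp3, Tex12 and Hormad1 have a GC content of 34.3% to 36.4%, and those of Syce1, Syce2, Syce3 and Hormad2 of 43.9% to 52.9%. The widest gaps were in lower-GC genes, Sycp2 (0.73), Sycp1 (0.69) and Sycp3 (0.31), against 0.08 to 0.23 in the higher-GC genes. Tex12, among the lowest in GC, was the gene with the gap in the other direction (-0.10). Hormad1 (0.22) and Syce2 (0.23) had like gaps at 35.8% and 49.3% GC. The largest log2 fold changes were also in lower-GC genes: Sycp1 (0.71), Hormad1 (0.48), Sycp3 (0.42) and Tex12 (0.41). Sycp2, of the same GC range, had 0.16. Over the 526 tested genes of at most 40% GC, the median of hemicastrated 1 minus 2 was 0.091 on the log2 scale and that of control 1 minus 2 was -0.105. Of these genes 61.4% had a group difference above 0, against 40.1% to 47.6% in the other GC ranges. After a correction of each library for transcript length and GC content, chosen after the data were seen, the median of the 9 genes was 0.37 and 9 of 9 were above 0. Sycp1 then had a log2 fold change of 0.63, Hormad1 of 0.41, Sycp3 of 0.37 and Syce3 of 0.52, with 0 of the 9 genes past the threshold.

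The other genes of meiotic prophase, taken from lists of their roles, were compared in the same fit. Of 7 such lists and the stage markers of germ cells, none had a gene past the threshold. Of the synaptonemal complex genes outside the 9, the central element gene 4930447C04Rik (Six6os1) was at 2.28 and 2.38 FPKM against 3 and 1.56. Syce1l was at 10.1 and 6.06 against 9.74 and 8.05, with a mean of 8.5, above that of Hormad2 (6.56). The groups overlapped for both genes. Their median log2 fold change was 0.05 over 2 tested genes of 3, ranging from -0.17 without hemicastrated 1 to 0.27 without hemicastrated 2.

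Cohesin, the ring that forms the base of the axis, showed 0 of 13 tested genes past the threshold and a median of 0.07 (from -0.02 without control 1 to 0.11 with median centring). The meiotic subunit Stag3 was at 105 and 108 FPKM against 102 and 107, and the meiotic kleisin Rec8 at 25.1 and 22.9 against 25.7 and 27.9. Smc1b, the meiotic SMC subunit, was at 13.9 and 16.7 FPKM against 22.5 and 16.6, with hemicastrated 1 again the highest library (log2 fold change 0.32, limma adjusted p = 0.581). Both hemicastrated values lay above both controls in 2 of the 13 cohesin genes, against 16.3% of all genes tested.

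Genes for double-strand breaks and the axis proteins that license them had a median of -0.12 over 13 tested genes. The median was above 0 in 1 alternative of 16 (0.02 without hemicastrated 2). Of the 13, 9 were below 0 and 4 above 0, against 43.4% of all genes tested above 0. Spo11, the enzyme that makes the breaks, had 17.1 and 13.7 FPKM in control testes and 11.9 and 10.9 after hemicastration, a log2 fold change of -0.39 (adjusted p = 0.374 in limma). This is the opposite sign to that of Hormad1, and no difference between the genes was tested. Mdc1, which spreads the damage signal over unsynapsed chromatin, was at 33.1 and 34.8 against 29.5 and 29.3 FPKM. Rec114, a partner of the break machinery, went the other way with groups apart, at 1.61 and 0.998 FPKM against 2.12 and 1.81 (log2 fold change 0.37, adjusted p = 0.548). Both hemicastrated values were below both controls in 4 of the 13 genes and above them in 2, against 24.8% and 16.3% of all genes tested.

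Genes of homology search and crossing over had a median of 0.10 over 23 tested genes of 25, with 0 past the threshold. Of the 23, 16 were above 0, against 43.4% of all genes tested. Members pointed both ways. Psmc3ip, which encodes the strand-exchange cofactor HOP2, was at 78.7 and 70.1 FPKM against 100 and 93.6 (0.38 on the log2 scale, adjusted p = 0.211 in limma), while the meiotic recombinase gene Dmc1 was at 4.22 and 4.15 against 3.31 and 3.12 (-0.30, adjusted p = 0.480). Mnd1, the partner of Psmc3ip, was at 1.60 and 1.87 FPKM against 0.690 and 1.41.

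The list for telomere attachment had a median of 0.10 over 9 tested genes (from -0.06 without control 2 to 0.15 without hemicastrated 2). Its LINC complex gene Ccdc155, also called Kash5, was at 22.2 and 18.8 FPKM against 27.3 and 20.7. Regulators of meiotic entry had a median of -0.08 over 17 tested genes, with a negative median in 16 of 16 alternatives. Of the 17, 4 were above 0, against 43.4% of all genes tested, and 6 had both hemicastrated values below both controls, against 24.8%. Among them, Gm4969, which encodes the STRA8 partner MEIOSIN, was at 2.90 and 3 FPKM against 2.32 and 2.07. Log2 fold changes were -0.26 for Max, -0.24 for Mga and -0.20 for E2f6, none of them past the threshold (limma adjusted p of 0.63, 0.648 and 0.67). Stra8 itself was at 5 and 4.14 FPKM against 4.77 and 4.98. Prophase exit and disassembly of the complex had a median of 0.03 over 18 tested genes, with the chaperone gene Hspa2 at 178 and 172 FPKM against 180 and 164 and the checkpoint kinase gene Bub1 at 13.9 and 13.7 against 16.9 and 15.8.

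**Figure D4:**
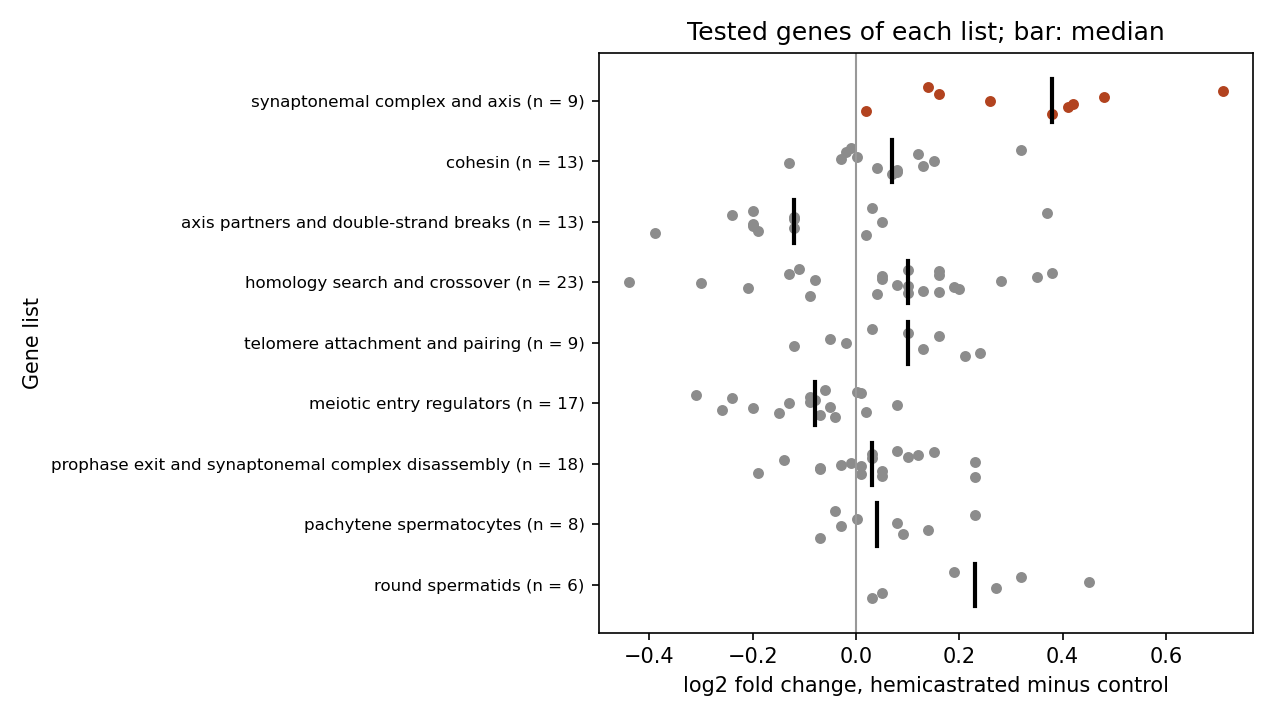
Log2 fold change (hemicastrated minus control, log2(FPKM + 1) scale) of each tested gene, 1 point per gene, by list, with the median as a bar and vertical scatter for legibility. The 9 genes described have a median of 0.38, and the other plotted lists of meiotic prophase have medians between -0.12 and 0.10. Pachytene spermatocyte markers have a median of 0.04 and round spermatid markers of 0.23, with 6 of 6 above 0. The synaptonemal complex genes outside the 9 (median 0.05 over 2 tested) are not plotted.

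Markers of germ cell stages and of other cells of the testis place the 9 genes in the tissue. Pachytene spermatocyte markers, the stage with a complete synaptonemal complex, had a median of 0.04 over 8 tested genes. Their summed level was 3286 and 3375 FPKM in control testes against 3345 and 3743. Most of that sum was Ldhc alone, at 2503 and 2549 FPKM against 2504 and 2891. Preleptotene and differentiating spermatogonia markers had a median of -0.03 over 5 tested genes, with 10 of 16 alternatives below 0, and undifferentiated spermatogonia markers of -0.10 over 3. Some lists share genes, so their medians are not separate results. For example, Stra8, Sohlh1 and Sohlh2 of the preleptotene list are also meiotic entry genes, and the pachytene markers Hspa2 and Ccna1 also prophase exit genes. Round spermatid markers had a median of 0.23 over 6. Both hemicastrated values lay above both controls in 4 of the 6, against 16.3% of all genes tested. Among the 4, Lyzl1, a lysozyme-like sperm protein, was at 42.1 and 45.8 FPKM against 58.6 and 61.8. Elongating spermatid markers had a median of 0.04 over 5 (from -0.04 without hemicastrated 2 to 0.18 with the length and GC correction).

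Among somatic cells, the Sertoli markers had a median of 0.26 over 7 tested genes, with the cystatin genes Cst9 at 62.8 and 76.7 FPKM against 110 and 112 and Cst12 at 56.3 and 74.5 against 107 and 109. Gata4, a Sertoli and Leydig cell transcription factor gene, went the other way, at 4.37 and 4.07 against 3.39 and 3.87 FPKM, and Clu, the clusterin gene, had a log2 fold change of -0.03. The summed Sertoli level was 494 and 516 FPKM against 618 and 575. Leydig markers had a median of -0.07 over 6, with members on both sides. Insl3 was at 1272 and 1232 FPKM against 1609 and 1484, and Star, the cholesterol transporter gene, at 22.2 and 17 against 26.8 and 26.1. Cyp11a1, the first enzyme of steroid synthesis, was at 73.1 and 64.2 FPKM against 48.9 and 62.2, so its groups were apart in the other direction. Macrophage markers had a median of -0.19 over 4. None of these Sertoli, Leydig and macrophage genes passed the test. Both hemicastrated values lay above both controls in 4 of the 7 Sertoli genes and below them in 1, against 16.3% and 24.8% of all genes tested. The part of cell makeup in the difference of the 9 genes was not tested.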

How the data were processed

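Poly(A) RNA of the right testis was sequenced from random-primed, double-stranded cDNA with paired-end Illumina reads, per the labels' protocols. TopHat2 2.0.11, Cufflinks 2.2.1 and GRCm38 are listed without roles, per the submitters' processing notes. The authors' annotation: not given in the sources used here. Each library has a deposited column of FPKM by gene, per the file headers; the labels' molecule field says genomic DNA. They keep no read counts, so depth is unknown and no counting interval is given.

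Symbols and positions came from GENCODE M21 (GRCm38), which named 21806 of 22073 identifiers. Genes averaging 1 FPKM or more were compared on log2(FPKM + 1) with limma 3.58.1 in R 4.3.3 (variance trend, no covariate, Benjamini-Hochberg over 11343 genes). The test was checked on data simulated from its own fitted variances, a check that does not cover shifts between libraries. Intervals are limma's at 95%. Near copies were found with blastn 2.17.0 (at least 90% identity over 100 bases), and promoter windows came from RefSeq on GRCm38.p6. The 9 genes, the motifs and the 16 comparison lists were chosen with earlier results of these data known. Genes named in a list are among the 4 with the smallest p there. Prm1, Crisp1, Sox9, Insl3, Stra8 and Hspa2 are named as markers, and Stag3, Gata4, Clu and the genes overlapping the 9 were chosen after their values were seen. Named likewise are the 5 tested genes of at least 5 FPKM whose centred profile lay nearest to the mean profile of the 9, of which 1 is not reported here. Alternatives covered the pseudocount, filter, scaling, variance model, each library left out and the replicate number as a block.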

Additional observations from a re-analysis of the deposited data

How the results depend on the processing

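No gene of the 9 passed the threshold under 15 of 16 alternatives, and 1 (Sycp1, log2 fold change 1.06) did without hemicastrated replicate 2, so leaving out libraries gave 0 to 1. Leaving out libraries moved the median of the 9 genes from 0.27 to 0.45, the count of higher genes from 0 to 26 (12 with all libraries) and of lower genes from 78 to 156 (135). Higher genes numbered 3 with no filter, 7 with the filter raised to a mean of 5 FPKM and 23 after correcting for length and GC, and lower genes 63 with the raised filter, where fewer genes were tested. The sign of Syce2 was reversed under quantile normalization (-0.01), with sums rescaled without the lower genes (-0.01), without control 2 (-0.10) and without hemicastrated 1 (-0.09), within a range of -0.10 to 0.15 over left-out libraries. Sycp2 ran from -0.20 to 0.52 when libraries were left out. Sertoli genes past the threshold numbered 1 with robust hyperparameters and 2 with the length and GC correction, and round spermatid genes 1 with that correction. The cause of these changes was not tested. The shared numbers 1 and 2 of the titles were not taken to pair the mice. Deviations of same-numbered libraries correlated at 0.0137 over genes, a value that cannot decide whether the mice were paired. A replicate block gave 30 higher and 167 lower genes, 2 of them Sertoli markers and 0 of them among the 9. Unknown depth limits what can be said of the low genes Hormad2 and Tex12. The 2 added alternatives, the length and GC correction and the rescaled sums, were chosen after seeing the data.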

Other observations

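Ratios between partner genes within a library cancel a scaling factor shared by all genes of that library. They do not cancel differences between libraries that depend on GC content or transcript length. Some of the ratios differed in level between the groups. Syce3 stood at 1 and 1.23 times Syce2 in control testes and at 1.38 and 1.47 times after hemicastration. Hormad1 stood at 2.27 and 2.53 times Hormad2 in control testes against 3.20 and 2.91 times. The ratio of Sycp1 to Sycp3 was 0.151 and 0.148 against 0.219 and 0.164, and that of Sycp1 to Syce1 was 0.0961 and 0.0919 against 0.162 and 0.110. Syce1 to Syce3 went the other way, at 0.827 and 0.907 against 0.803 and 0.789. The ratios of Sycp2 to Sycp3 (0.196 and 0.209 against 0.199 and 0.143) and of Hormad1 to Sycp3 (0.255 and 0.238 against 0.252 and 0.266) overlapped between the groups. These ratios, 8 with that of Tex12 to Syce2, were picked for known partnerships after the values were seen and were not tested.

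Over the 4 libraries, the mean centred profile of the 9 genes was -0.17 and -0.16 in control testes and 0.30 and 0.03 after hemicastration on the log2(FPKM + 1) scale. The 6864 other genes averaging 5 FPKM or more were ranked by Euclidean distance to it. Near it lay Cfap53 (distance 0.0487), a gene of ciliary and flagellar motility, at 13.5 and 13.3 FPKM against 19.3 and 16.0. Svip, Ndufs6 and Acyp1 were at distances of 0.0617, 0.0624 and 0.0828. The closest of the 9 was Syce3 at 0.107, nearer than all but 24 of the other genes, and the farthest was Sycp1 at 0.484. The 9 genes make up the mean profile, which lowers their own distances, so these cannot be ranked fairly against those of other genes. Within the median distance of the 9, 0.252, lay 8.35% of the other genes.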
